A study of Mus musculus with 48 samples.

Results

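Insulin, FOXO and mTOR signalling was followed through 10 genes, taken by symbol from a table of 56893 genes: Igf1, Igfbp2, Insr, Igf1r, Irs1, Irs2, Foxo1, Foxo3, Ddit4 and Sesn1. All 10 had enough reads to be among the 17352 genes tested. The table came from poly-A selected RNA of 1 brain hemisphere from each of 48 mice, each sequenced as its own library. Sex, genotype and feeding state formed 12 groups of 4 mice. Control mice carried loxP-flanked Grin1 alleles (Grin1fl/fl) without a recombinase, and 1 control, female control unrestricted replicate 2, was labelled Grin1fl/+. Knockout mice were Aldh1a1+/P2A-CreERT2::Grin1fl/fl, so that the CreERT2 recombinase sat in 1 copy of Aldh1a1 and the flanked Grin1 alleles were shared with the controls. Grin1 encodes a subunit of the NMDA-type glutamate receptor, and Aldh1a1 marks a subset of midbrain dopamine neurons among other cells. Every mouse had been moved from group housing to a single cage with chow, and ages ran from 5.5 to 8.5 months. Unrestricted mice were taken with no food restriction. Restricted mice were taken after food had been restricted on 2 nights, chow being given in the day between. Refed mice had the same 2 nights and then 3 days in which an automatic device gave them grain-based pellets freely. The study asked how the effect of the knockout depends on sex and feeding state.

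Insulin and IGF-1 act through related receptor tyrosine kinases, encoded by Insr and Igf1r, which phosphorylate the adaptor proteins IRS1 and IRS2 and so activate PI3K, AKT and the growth-promoting kinase complex mTORC1. AKT also keeps the FOXO transcription factors out of the nucleus, and when the signal drops they enter it and switch on genes of energy saving and of insulin sensitivity, with Irs2 and Insr among their known targets. Ddit4 (REDD1) and Sesn1 (sestrin 1) encode stress-induced proteins that restrain mTORC1, and Igfbp2 encodes a secreted protein that binds IGFs. In the brain these pathways report on nutrition and bear on feeding, metabolism and plasticity.

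Total counts per library ran from 7574827 to 16185373, with a median of 10515486, and the member with the fewest reads, Igf1, had between 46 and 116 counts. Levels are given as CPM, each library's counts scaled to a common total, after TMM scaling of library sizes, and a gene is said to rise, fall or change where its adjusted p was under 0.05. In knockouts Aldh1a1, the gene that holds the recombinase, was lower by 0.92 on the log2 scale (log2 change -0.92), with 101 ± 16.7 CPM (SD, n = 24) against 190.3 ± 27.3 CPM (SD, n = 24) in controls. Grin1 was at 356 ± 29.4 CPM in knockouts and 351 ± 49.3 CPM in controls (SD, n = 24 each), and its log2 difference of 0.02 did not show the knockout in hemisphere RNA. Of the neuron, astrocyte, oligodendrocyte and microglia markers checked against the labelled tissue, none was at 0 in all libraries. Libraries that stood apart were male control refed replicate 1, with the muscle gene Acta1 at 1143 CPM (next highest library 76.1 CPM), and female knockout unrestricted replicate 2, with 7.78% of its counts in the ribosomal RNA gene Rn18s-rs5 (next highest 1.92%). Leaving out both gave 7 members changed with restriction where all libraries gave 6, and 4 changed with refeeding in either case.

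The promoters of the members that changed most are printed so that their letters can be set beside the values that follow. RefSeq's promoter table (build GRCm38.p6) held 9 of the 10 members, and each stretch below is the 250 bases before the annotated start, read 5′ to 3′ on the gene's strand, with any E-box (CACGTG, the site of bHLH factors such as TFE3) in capitals. The coordinates are chr8:11008930-11009179 (minus strand) for Irs2, chr10:41810324-41810573 (plus) for Sesn1, chr10:59951771-59952020 (minus) for Ddit4 and chr1:72824230-72824479 (plus) for Igfbp2.
Irs2: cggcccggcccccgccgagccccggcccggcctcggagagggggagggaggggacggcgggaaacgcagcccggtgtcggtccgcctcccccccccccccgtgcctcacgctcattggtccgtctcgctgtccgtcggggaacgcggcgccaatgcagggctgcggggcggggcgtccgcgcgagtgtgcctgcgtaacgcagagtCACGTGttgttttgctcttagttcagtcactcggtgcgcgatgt
Sesn1: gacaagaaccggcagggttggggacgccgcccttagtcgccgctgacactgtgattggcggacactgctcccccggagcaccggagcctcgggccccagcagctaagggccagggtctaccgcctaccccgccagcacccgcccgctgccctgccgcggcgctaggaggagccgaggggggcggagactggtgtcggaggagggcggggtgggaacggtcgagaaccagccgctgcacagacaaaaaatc
Ddit4: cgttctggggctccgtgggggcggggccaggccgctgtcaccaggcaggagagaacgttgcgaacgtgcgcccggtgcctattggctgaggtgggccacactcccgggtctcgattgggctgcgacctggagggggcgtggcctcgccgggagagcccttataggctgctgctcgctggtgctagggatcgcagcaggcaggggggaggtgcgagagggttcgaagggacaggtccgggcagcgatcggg
Igfbp2: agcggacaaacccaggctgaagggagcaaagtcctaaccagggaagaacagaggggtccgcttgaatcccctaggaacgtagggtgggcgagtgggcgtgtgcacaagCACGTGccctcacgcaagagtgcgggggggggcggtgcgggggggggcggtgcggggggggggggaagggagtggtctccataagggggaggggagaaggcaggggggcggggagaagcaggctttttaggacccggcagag

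Motifs were looked for on both strands of each member's full window, which also takes in the 50 bases after the start. The E-box CACGTG was found in the windows of Irs2, Igfbp2 and Irs1, and 7.15% of the 32851 promoters in the table hold it. The forkhead motif GTAAACA, the site of FOXO factors, was found in Sesn1 only, just after the start, at bases 273 to 279 of the window. It reads TGTTTAC on the gene's strand and is in capitals in the stretch below (chr10:41810584-41810613). It is held by 3.65% of all promoters.
Sesn1 after the start: agaaccttctacTGTTTACcagccttttgg
The cAMP response element TGACGTCA (1.79% of promoters) and the TATA box letters TATAAA (13.6%) were in no member's window, and Ddit4, Foxo1, Foxo3, Igf1r and Igf1 held none of the 4 motifs. The motifs do not overlap one another in these windows. Sesn1 and Igfbp2 each have a second promoter entry, and neither of those holds a motif.

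Per base of transcript, the mTORC1 brakes and the binding protein were the most abundant of the 10 transcripts. In the 16 unrestricted mice Ddit4 was at 35.6 ± 6.37 FPKM (CPM divided by the length in kilobases of the canonical GENCODE M39 transcript; SD), Igfbp2 at 24.7 ± 2.64 FPKM and Sesn1 at 21.4 ± 0.931 FPKM. Igfbp2 was above Sesn1 in 25 of the 48 libraries, so that pair has no firm order. Foxo3, at 13.2 ± 0.893 FPKM, was well above Foxo1, at 3.12 ± 0.383 FPKM. The same held for the adaptors, with Irs2 at 9.47 ± 0.785 FPKM and Irs1 at 2.21 ± 0.214 FPKM. The receptors lay close together, Insr at 5.69 ± 0.543 FPKM and Igf1r at 4.85 ± 0.459 FPKM, with overlapping ranges, although Insr was the higher in 47 of 48 libraries. Igf1 was the lowest of the 10 at 0.921 ± 0.086 FPKM. Counting all annotated exons in place of the canonical transcript left the order as it was. Ddit4 also varied most between mice of 1 group, with a within-group SD of 0.25 on the log2 scale against a median of 0.178 over all genes tested, and Sesn1 varied least, at 0.116.

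Food restriction changed 6 of the 10 genes in both sexes together (16 restricted against 16 unrestricted mice). Ddit4, Irs2, Sesn1, Foxo1 and Insr rose and Igfbp2 fell, so that the rise covered both mTORC1 brakes, 1 adaptor, 1 receptor and 1 FOXO factor, while the fall was in the IGF-binding protein. Of all genes tested, 15.2% changed, 7.31% upward and 7.84% downward. The median log2 change of the 10 was 0.148, against -0.000457 over all genes. The 10 were chosen with earlier results of these data known, so this contrast is a description and no test of the set. The changes were modest in size apart from that of Ddit4. Below, counts of mice beyond the range of another feeding state are descriptions only, because the share over all genes is not given here. In hemisphere RNA, fewer cells of a type and less RNA per cell cannot be told apart.

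**Figure D1:**
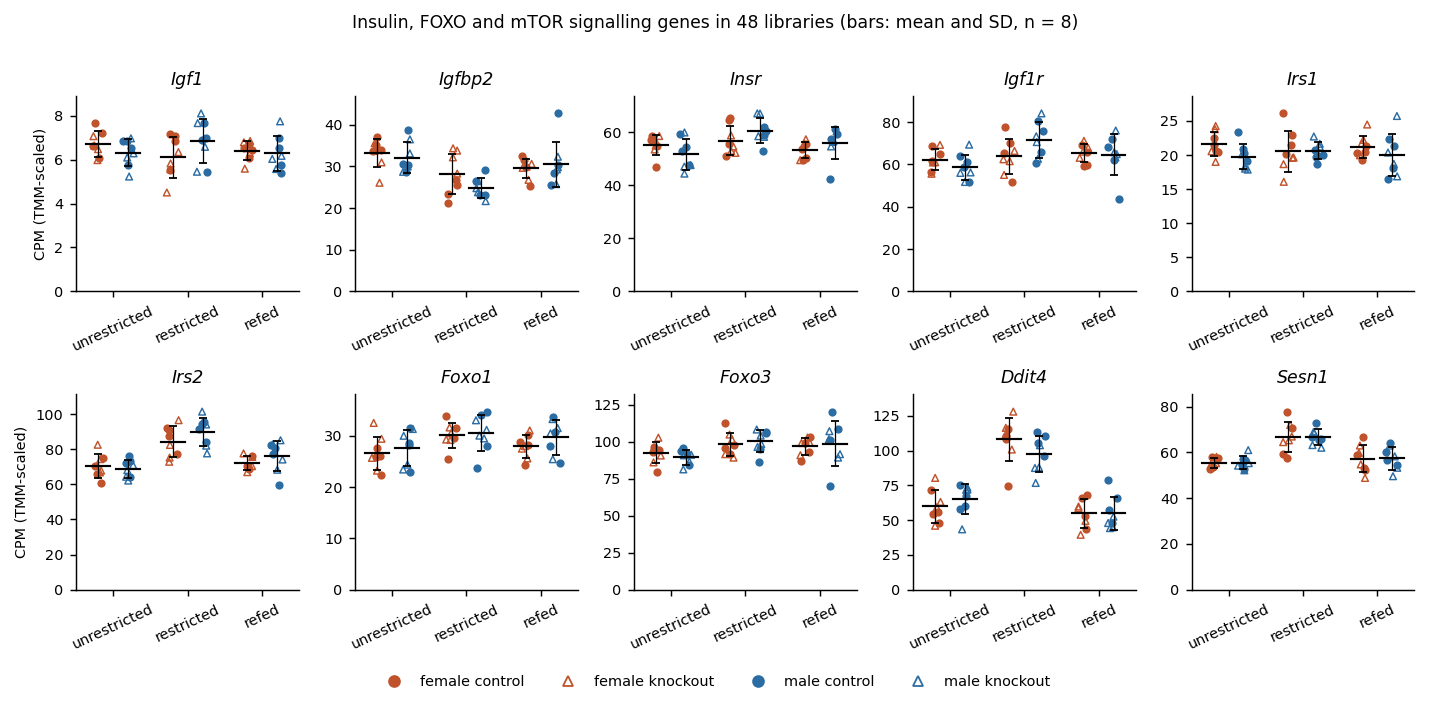
Level of each of the 10 genes in all 48 libraries, in TMM-scaled CPM from 0 on a linear axis, by feeding state (x axis), sex (colour) and genotype (filled circles control, open triangles knockout); black lines give the mean and SD of 8 mice. Ddit4 sits between 74.8 and 128 CPM in restricted mice and between 43.4 and 80.4 CPM in unrestricted mice, and Irs1 has medians of 20.5, 20.2 and 20.4 CPM across the 3 feeding states.

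Ddit4, whose product REDD1 activates the TSC complex and thereby lowers mTORC1 activity, moved most. Its level was 43.4 to 80.4 CPM (median 61.9) in unrestricted mice and 74.8 to 128 CPM (median 107) in restricted mice. The ranges overlapped only at their edges: 14 of the 16 restricted mice were above the highest unrestricted mouse, and all 16 were above the unrestricted median. The log2 change was 0.71 ± 0.08 (SE; edgeR adjusted p = 5.9e-09). Sesn1, whose product dampens mTORC1 through GATOR complexes, moved by less but as evenly. It ran from 52.2 to 61.0 CPM (median 55.0) in unrestricted mice and from 57.6 to 77.9 CPM (median 66.4) in restricted mice. Again 14 of 16 restricted mice exceeded every unrestricted one, at a log2 change of 0.27 ± 0.04 (adjusted p = 4.14e-06).

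The adaptors parted. Irs2 rose, from 61.0 to 82.6 CPM (median 69.4) in unrestricted mice to 72.9 to 102 CPM (median 89.5) in restricted mice. All 16 restricted values lay above the unrestricted median and 10 above the highest unrestricted value (log2 change 0.32 ± 0.05, adjusted p = 1.21e-06). Irs1, the other adaptor, had medians of 20.5 and 20.2 CPM, and its log2 difference of -0.01 had a 95% confidence interval from -0.11 to 0.09.

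The receptors and FOXO factors moved by small amounts around the threshold. Insr, the insulin receptor, ran from 44.4 to 59.9 CPM (median 54.7) without restriction and from 50.9 to 67.1 CPM (median 58.7) with it, a log2 change of 0.14 ± 0.05 (adjusted p = 0.0367). Foxo1 had medians of 26.8 and 30.3 CPM and a log2 change of 0.17 ± 0.06 (adjusted p = 0.041). Igf1r, the IGF-1 receptor, had medians of 60.9 and 66.0 CPM and a log2 difference of 0.16 ± 0.06, which missed the threshold (adjusted p = 0.0524). Foxo3 likewise missed it, with medians of 91.5 and 98.0 CPM and a log2 difference of 0.13 ± 0.05 (adjusted p = 0.0721). These 4 genes had nearly the same size of difference, and which of them pass depends on small choices: the Insr call was kept in 36 and the Foxo1 call in 35 of the 48 fits that leave out 1 library, while Igf1r was called in 13 and Foxo3 in 3 of them. In all 4 the restricted and unrestricted ranges overlapped widely, with 4 to 7 of 16 restricted mice above the highest unrestricted mouse.

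Igfbp2 fell, and Igf1 was not called. Igfbp2 ran from 26.1 to 38.6 CPM (mean 32.6 ± 3.48, SD) in unrestricted mice and from 21.3 to 34.3 CPM (mean 26.5 ± 4.08) in restricted mice. Of the restricted mice, 8 of 16 were below the lowest unrestricted one, and the gene fell by 0.31 ± 0.06 on the log2 scale (adjusted p = 9.37e-05). Igf1, the ligand of IGF1R, stayed at medians of 6.58 and 6.72 CPM, with a log2 difference of -0.02 and a 95% interval from -0.15 to 0.11. The fall of Igfbp2 was uneven between libraries: within those numbered up to 28 in the labels (7 restricted, 5 unrestricted) the difference of log2 CPM was -0.13, and within those numbered from 29 (9 and 11) it was -0.44. These differences weigh the sexes equally but pool the genotypes. Restricted females were 3 knockouts and 1 control up to 28, and 1 and 3 from 29. Their mean Igfbp2 was 32.1 CPM in knockouts and 24.2 CPM in controls. With the library numbers split at 28 in the fit, which keeps the 12 groups apart, the log2 change of Igfbp2 was -0.31 (adjusted p = 1.27e-04). The same within-set differences were 0.82 and 0.71 for Ddit4, 0.25 and 0.35 for Irs2, 0.32 and 0.21 for Sesn1, 0.16 and 0.14 for Foxo1, and 0.03 and 0.18 for Insr. In the fit with the split, Insr and Foxo1 were no longer called (adjusted p = 0.0526 and 0.0667).

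Markers of some cell types moved with Igfbp2. Of 10 microglia markers 6 fell with restriction and none rose, and their summed level was 308 to 361 CPM (median 332) in unrestricted mice, 267 to 353 CPM (median 288) in restricted mice and 315 to 372 CPM (median 340) in refed mice. Of 10 oligodendrocyte markers 6 fell and 1 rose, and of 11 endothelium and pericyte markers 5 fell and 1 rose. The summed oligodendrocyte level was 9836 to 18150 CPM (median 12420) in unrestricted and 8817 to 16460 CPM (median 14330) in restricted mice, so its median was higher with restriction although most of the called markers fell. The summed endothelial level was 235 to 307 CPM (median 268) in unrestricted and 195 to 279 CPM (median 258) in restricted mice. Astrocyte markers (4 up and 1 down of 10), oligodendrocyte precursor markers (3 up and 2 down of 8), meningeal markers (1 up and 1 down of 10) and choroid plexus markers (1 down of 11) went less one way, while edgeR called none of the 10 neuron markers and none of the 6 ependyma markers (0 and 1 at an unadjusted p under 0.05). No marker of any of these lists was at 0 in all libraries. The part of these cell types in the change of Igfbp2, or of any other member, was not tested.

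After refeeding, 4 of the 10 genes moved against the direction they had taken with restriction. Ddit4, Sesn1 and Irs2 fell, and Igfbp2 rose by an amount whose call did not hold in every fit (16 refed against 16 restricted mice), where 15.2% of all genes changed, 8.38% upward and 6.79% downward. This comparison shares its restricted mice with the comparison above, and each comparison's own values are given. Ddit4 ran from 39.5 to 78.7 CPM (median 52.7) in refed mice and fell by 0.91 ± 0.08 on the log2 scale (adjusted p = 1.41e-11). Sesn1, at 48.9 to 66.6 CPM (median 57.5), fell by 0.22 ± 0.04 (adjusted p = 1.13e-04), and Irs2, at 59.7 to 85.2 CPM (median 74.9), fell by 0.23 ± 0.05 (adjusted p = 2.98e-04). All refed ranges overlapped the restricted ones. Igfbp2, at 25.2 to 42.7 CPM (median 29.9), rose by 0.19 ± 0.06 (adjusted p = 0.0195). The highest refed value came from male control refed replicate 1, the library with muscle transcripts, and without it the log2 difference was 0.14 (adjusted p = 0.051). All refed libraries are numbered up to 28, and with the library number split in the fit Igfbp2 was not called either (0.18, adjusted p = 0.0714). Within that set (16 refed, 7 restricted), again with the genotypes pooled, its difference of log2 CPM was 0.07. The same difference was -0.91 for Ddit4, -0.28 for Sesn1 and -0.24 for Irs2. Of 10 microglia markers 7 rose with refeeding and none fell, 6 of 10 oligodendrocyte markers rose and 1 fell (median summed level 12480 CPM in refed mice), and all 6 red cell markers rose, with a summed red cell level of 289 to 819 CPM in restricted and 781 to 2717 CPM in refed mice. Meningeal markers (4 up of 10), endothelium and pericyte markers (3 up of 11) and choroid plexus markers (1 up of 11) had no falls. Astrocyte markers (2 up and 4 down of 10) and oligodendrocyte precursor markers (2 up and 1 down of 8) went both ways. None of the 10 neuron markers or 6 ependyma markers was called by edgeR (1 and 0 at an unadjusted p under 0.05). The part of these cells in the refeeding changes was not tested.

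Insr, Foxo1, Igf1r and Foxo3 were not called after refeeding. Their log2 differences, refed against restricted, were -0.10 (95% interval -0.19 to -0.01), -0.08 (-0.19 to 0.04), -0.06 (-0.17 to 0.06) and -0.02 (-0.12 to 0.08). In the fit with the library number split, in which Igfbp2 lost its call, Insr gained one, falling by 0.15 (adjusted p = 0.0482). Irs1 (0.01, interval -0.09 to 0.11) and Igf1 (-0.02, interval -0.15 to 0.11) again showed no difference beyond the spread.

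Set against unrestricted mice, refed mice showed no member changed by edgeR, and neither DESeq2 nor limma called any, with 3 of 10 at an unadjusted p under 0.05. Of all genes, 0.738% changed, and 13% were at an unadjusted p under 0.05. The 3 were Ddit4, lower at -0.20 (95% interval -0.36 to -0.03), Igfbp2, lower at -0.12 (-0.24 to -0.00469), and Foxo3, higher at 0.11 (0.00758 to 0.20). Irs2 stood at 0.09 (-0.00507 to 0.18) and Sesn1 at 0.05 (-0.04 to 0.13), so changes of the size seen with restriction (0.32 and 0.27) lie outside their intervals. Both comparisons use the unrestricted mice. Leaving out male control refed replicate 2 put Foxo3 past the threshold at 0.13 (adjusted p = 0.0414), and the count of all genes called then went from 128 to 677. All 6 red cell markers were called higher in refed than in unrestricted mice. Their summed level was 781 to 2717 CPM in refed and 287 to 1344 CPM in unrestricted mice. The part of red cells in this comparison was not tested.

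**Figure D2:**
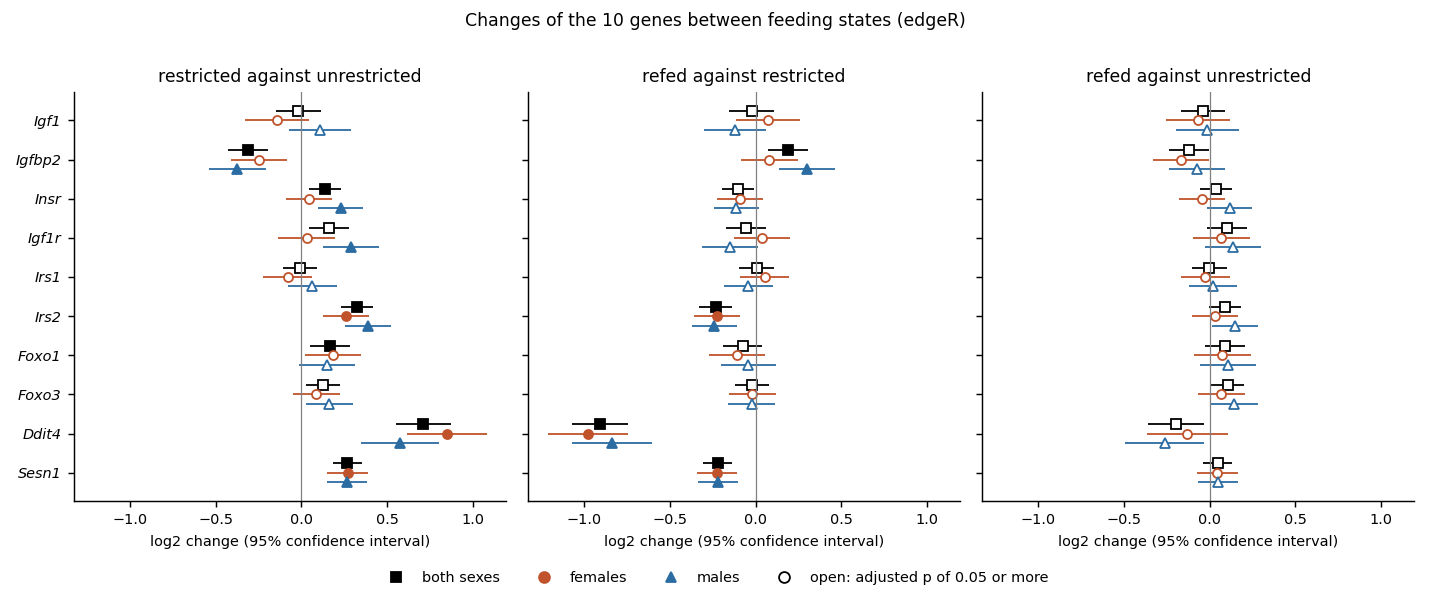
Log2 change of each gene between feeding states (x axis) with its 95% confidence interval, for both sexes together and for each sex, filled where the edgeR adjusted p is under 0.05. Ddit4 lies farthest to the right with restriction (0.71) and farthest to the left after refeeding (-0.91), and no symbol is filled for refed against unrestricted mice.

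Within females 3 genes changed with restriction (8 against 8 mice; 6.27% of all genes): Ddit4 rose by 0.85 ± 0.11, Sesn1 by 0.27 ± 0.06 and Irs2 by 0.26 ± 0.07. Within males 6 changed (8.28% of all genes), with rises of Ddit4 (0.57 ± 0.11), Irs2 (0.39 ± 0.07), Igf1r (0.29 ± 0.08), Sesn1 (0.27 ± 0.06) and Insr (0.23 ± 0.06) and a fall of Igfbp2 by 0.37 ± 0.08. For Insr all 8 restricted males were above the unrestricted male median and 3 of 8 restricted females above the female one, and in females the log2 differences were 0.04 for Insr and 0.03 for Igf1r. Igfbp2 in females stood at -0.25 ± 0.08 (adjusted p = 0.0589), and limma, the fit with the GC trend removed and the fit of the groups compared alone called it (adjusted p = 0.0365, 0.0222 and 0.0288). The male calls of Insr and Igf1r sat near the threshold too: Insr lost its call without male control unrestricted replicate 4 (adjusted p = 0.0507), and Igf1r without male control restricted replicate 1 or male knockout restricted replicate 3 (0.0554 and 0.0563). The difference between the sexes was itself tested, and it did not pass for any of the 10 genes. The test of sex by feeding state called 0 of the 10 genes with edgeR, DESeq2 and limma, with none at an unadjusted p under 0.05, and among all genes edgeR and limma called 0 and DESeq2 1. The share of all genes called by edgeR was 0%. The smallest unadjusted p among the 10 was 0.0795 for Igf1r and then 0.103 for Insr (adjusted p = 0.807 and 0.813).

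After refeeding 3 genes fell in females (6.1% of all genes), namely Ddit4 by 0.98 ± 0.12, Irs2 by 0.23 ± 0.07 and Sesn1 by 0.23 ± 0.06. The female call of Irs2 was lost with the GC trend removed (-0.17, adjusted p = 0.0752) and without female knockout restricted replicate 1, female control refed replicate 3, female knockout refed replicate 2 or female knockout refed replicate 4 (adjusted p = 0.0518 to 0.0823). In males 4 changed (8.33% of all genes): Ddit4 fell by 0.84 ± 0.11, Irs2 by 0.24 ± 0.07 and Sesn1 by 0.22 ± 0.06, and Igfbp2 rose by 0.30 ± 0.08. Without male control refed replicate 1 the male difference of Igfbp2 was 0.21 and was not called, nor was it with the GC trend removed (0.23, adjusted p = 0.0659). Irs2 in males lost its call without male knockout restricted replicate 2 (adjusted p = 0.0515). Fitted on the male refed and restricted groups alone, only Ddit4 of the 4 was called. Refed against unrestricted mice, no member was called in females (0.0403% of all genes) or in males (0.167%), nor by DESeq2 or limma. At an unadjusted p under 0.05 were 1 of 10 in females, beside 5.09% of all genes, and 3 of 10 in males, beside 13.4%. Without male control refed replicate 2, however, Foxo3 and Irs2 were called in males (0.20 and 0.18). Levels of the 10 genes did not separate the sexes: male against female called none with any of the 3 tools, none at an unadjusted p under 0.05, with log2 differences between -0.07 for Irs1 and 0.06 for Foxo1, and 0.357% of all genes were called.

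Between knockouts and controls no change of the 10 genes was detected when averaged over sexes and feeding states. edgeR, DESeq2 and limma each called no member, none had an unadjusted p under 0.05, and 0.00576% of all genes, that is Aldh1a1 alone, were called by edgeR. The log2 differences lay between -0.09 for Ddit4 (95% interval -0.22 to 0.04) and 0.03 for Foxo1 (-0.07 to 0.12). Taken separately by sex and feeding state, 6 comparisons of 4 knockouts with 4 controls, edgeR also called none. The shares of all genes called were 0.0115% in unrestricted females, 0.386% in restricted females, 0.225% in refed males and 0.00576% in refed females, unrestricted males and restricted males. In refed males edgeR called 39 genes, with a median absolute log2 change of 4.32, where DESeq2 called 6 and limma 1. The controls there include male control refed replicate 1, the library with muscle transcripts, and its part in these calls was not tested.

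**Figure D3:**
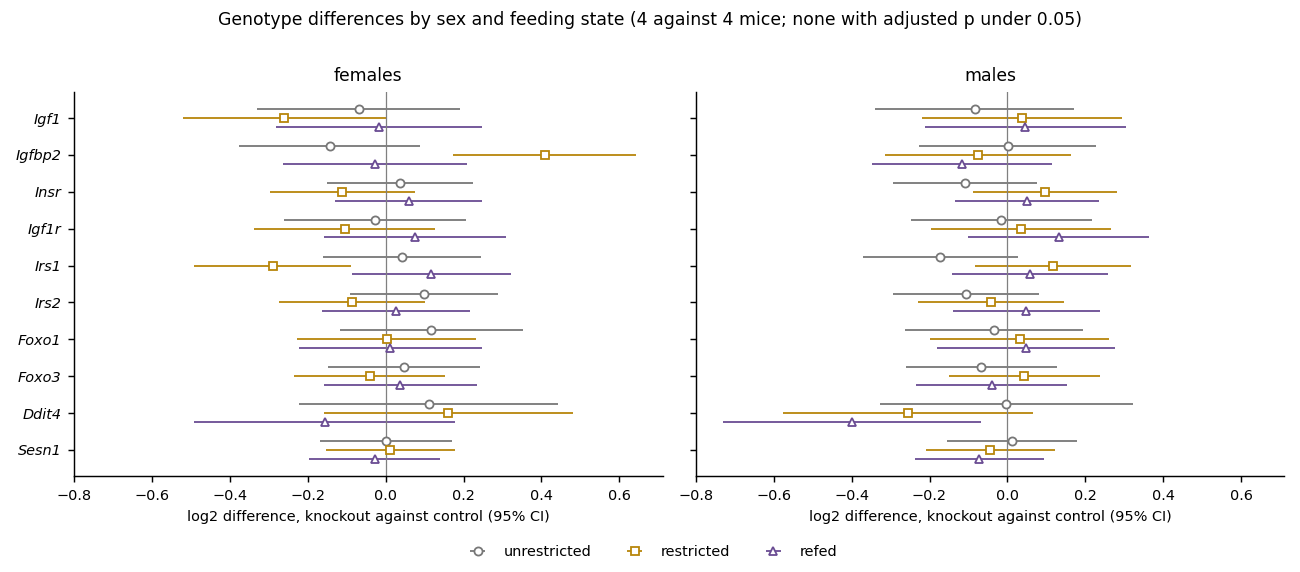
Log2 difference of knockout against control (x axis) with its 95% confidence interval for each gene, by sex (panels) and feeding state (symbols), with 4 mice in each group. The interval of Igfbp2 in restricted females (0.17 to 0.64) lies farthest from 0, and no difference passed the adjusted threshold in edgeR.

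The closest to a genotype difference was Igfbp2 in restricted females. Its levels were 33.8, 34.3, 32.1 and 28.3 CPM in the 4 knockouts and 25.6, 23.5, 26.7 and 21.3 CPM in the 4 controls. The groups did not overlap, every knockout being above every control, and the log2 difference was 0.41 ± 0.12 (edgeR adjusted p = 0.0957). The share of all genes that separate in this way is not given here, so the separation is a description only. DESeq2 (0.41, adjusted p = 0.0472) and limma (0.44, adjusted p = 0.0149) called it, as did edgeR without the 2 libraries that stood apart (0.42, adjusted p = 0.0329). In this comparison DESeq2 called 175 of all genes and limma 547, where edgeR called 67. Over the 11 alternatives the adjusted p ran from 0.0149 to 0.374. In these mice genotype largely follows the library numbers: 3 of the 4 knockouts (the first 3 values given) and 1 of the 4 controls (the first value) are numbered up to 28. With that split in the fit the log2 difference was 0.40 (adjusted p = 0.143). In unrestricted females the control values were 33.9, 35.04, 36.97 and 33.6 CPM and the knockout values 26.1, 35.5, 30.9 and 33.7 CPM, with medians of 34.5 and 32.3 CPM, against 24.5 and 32.96 CPM after restriction. Over both sexes, the difference of log2 CPM between restricted and unrestricted mice was -0.43 in controls and -0.19 in knockouts. The test of genotype by feeding state, which asks whether such changes differ, gave an unadjusted p of 0.0727 for Igfbp2 (adjusted p = 0.973).

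Irs1 in restricted females leaned the other way, at 19.6, 19.6, 16.1 and 18.7 CPM in knockouts and 20.1, 21.4, 26.1 and 22.9 CPM in controls. The values did not overlap, again a description only, and the log2 difference of -0.29 ± 0.10 was not called (adjusted p = 0.177). It rests on the same mice with the same uneven library numbers, and with the split in the fit it was -0.24 (adjusted p = 0.297). Ddit4 in refed males stood at 52.5, 44.9, 44.3 and 47.95 CPM in knockouts and 78.7, 57.1, 66.0 and 48.04 CPM in controls. The groups overlapped, and the lowest control and 1 knockout had nearly the same level, with a log2 difference of -0.40 ± 0.16 (unadjusted p = 0.019, adjusted p = 0.58). Genotype by feeding state and genotype by sex each called none of the 10 with edgeR, DESeq2 or limma. With edgeR they called 0% of all genes, while DESeq2 called 1 gene for genotype by sex. None of the 10 was at an unadjusted p under 0.05. The smallest for genotype by sex was 0.0588, for Ddit4.

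The wider pathway was read from 5 lists, none of which holds any of the 10 genes described above. These lists too were chosen with earlier results of these data known, so their shares of called genes are descriptions. Among the other ligands and binding proteins, 1 of 11 tested genes rose with restriction (9.09%) and none fell: Igfbp3, another IGF-binding protein, went up by 0.33 ± 0.07 while Igfbp2 went down. Igf2, at a median of 75.6 CPM in unrestricted mice, had a log2 difference of -0.06 ± 0.07, and its clearance receptor Igf2r at 0.05 ± 0.06; neither was called. The insulin genes themselves were hardly present, with no count of Ins1 in any library and at most 2 counts of Ins2, and they were not tested, nor were Igfbp1 and Igfals.

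Of 37 receptor and PI3K-AKT genes, 4 rose and 3 fell with restriction, a share of 18.9% against 15.2% of all genes. The largest rises were in Sgk3 (0.97 ± 0.08) and Sgk1 (0.88 ± 0.12), kinases related to AKT, and in Sh2b2 (0.78 ± 0.07), an adaptor of the insulin receptor. Sh2b2 went from 3.84 to 7.51 CPM in unrestricted mice to 8.62 to 13.6 CPM in restricted mice, with no overlap. Pik3ip1, an inhibitor of PI3K, rose by 0.19 ± 0.05. Akt2 fell by 0.38 ± 0.04, from a median of 109 to 83.1 CPM. Its groups narrowly did not overlap, the highest restricted value being 93.8 CPM and the lowest unrestricted value 94.9 CPM. The share of all genes that separate in this way is not given here, so the separations of Sh2b2 and Akt2 are descriptions only. Gab1, a docking protein, fell by 0.34 ± 0.05. Trib2 fell by 0.13 ± 0.04. After refeeding, Akt2 (0.21, adjusted p = 1.10e-04) and Gab1 (0.44) rose, but Akt2 was still lower than in unrestricted mice (-0.17, adjusted p = 0.0182) and Pik3ip1 still higher (0.20, adjusted p = 0.0257). No other gene of this list passed the threshold in refed against unrestricted mice, and with the library numbers in the fit 0 of the list did. The count was 1 without male control refed replicate 1, female control refed replicate 1, male control unrestricted replicate 2 or male knockout unrestricted replicate 4.

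Of 48 mTOR and lysosomal nutrient-sensing genes, 9 rose and 4 fell with restriction (27.1%). Other brakes of mTORC1 were among the risers, namely Sesn2 (0.26 ± 0.05), the arginine sensor Castor1 (0.50 ± 0.11) and Tsc1 (0.17 ± 0.03). Flcn, a regulator of RAG GTPases, rose by 0.15 ± 0.04. The risers were not all brakes, and also included Rhebl1, the S6 kinase gene Rps6kb1 and Prr5. Their mean levels without and with restriction were 6.7 and 7.97 CPM, 36.2 and 39.5 CPM, and 7.62 and 9.01 CPM. Sesn3, the other sestrin, at a median of 142 CPM in unrestricted mice, had a log2 difference of -0.03 ± 0.04 and was not called, and Ddit4l, the paralogue of Ddit4, fell by 0.35 ± 0.08. Prr5l, a partner of mTORC2, fell by 0.41 ± 0.05, Rragd, a RAG GTPase, by 0.20 ± 0.04, and Mapkap1, a core subunit of mTORC2, by 0.12 ± 0.04. After refeeding 5 of the 48 rose and 8 fell. In refed against unrestricted mice edgeR and DESeq2 called none and limma 3. With edgeR 6 of the 48 were at an unadjusted p under 0.05, beside 13% of all genes.

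Of 13 genes of the AMPK complex and its kinases, 2 rose and 1 fell with restriction (23.1%): Camkk1 (0.28 ± 0.05) and the subunit Prkab2 (0.12 ± 0.03) upward, Camkk2 (-0.18 ± 0.05) downward. After refeeding edgeR and DESeq2 called no gene of that list, and limma called 2. With edgeR 4 of the 13 were at an unadjusted p under 0.05, beside 28.6% of all genes. Camkk1 was still above unrestricted mice (0.19, edgeR adjusted p = 0.0296). That call was lost with the library numbers in the fit and without female control refed replicate 1, female knockout refed replicate 3, male knockout unrestricted replicate 4, female knockout unrestricted replicate 3, male control refed replicate 4 or male knockout refed replicate 1. With the library numbers in the fit, 2 genes of the list were called after refeeding, and 1 was without male control restricted replicate 2, male control restricted replicate 4, male control refed replicate 2 or male knockout restricted replicate 4. Of 34 other FOXO factors and genes known as FOXO targets, 7 rose and 5 fell (35.3%). Foxo4 (0.05 ± 0.06) and Foxo6 (-0.25 ± 0.10), the relatives of Foxo1 and Foxo3, were not called. Cdkn1a, the cell-cycle inhibitor p21, rose most of the named genes, by 2.09 ± 0.08, from a median of 11.7 to 50.1 CPM. Its groups did not overlap, again a description only. Pnpla2, the fat lipase ATGL, rose by 0.99 ± 0.06, Pdk4, which restrains glucose oxidation, by 0.91 ± 0.10, and Txnip, an inhibitor of glucose uptake, by 0.69 ± 0.08. Known targets also fell: Tnfsf10 by 0.90 ± 0.14, Ccnd1 (cyclin D1, which FOXO factors repress) by 0.44 ± 0.04, S1pr1 by 0.28 ± 0.04 and Fbxo32 by 0.24 ± 0.06. Refeeding gave 4 rises and 9 falls in this list. In refed against unrestricted mice edgeR and DESeq2 called none and limma 1. With edgeR 4 of the 34 were at an unadjusted p under 0.05, beside 13% of all genes. The list medians with restriction, between -0.01 for the ligands and 0.03 for the FOXO list, lay close to the all-gene median.

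**Figure D4:**
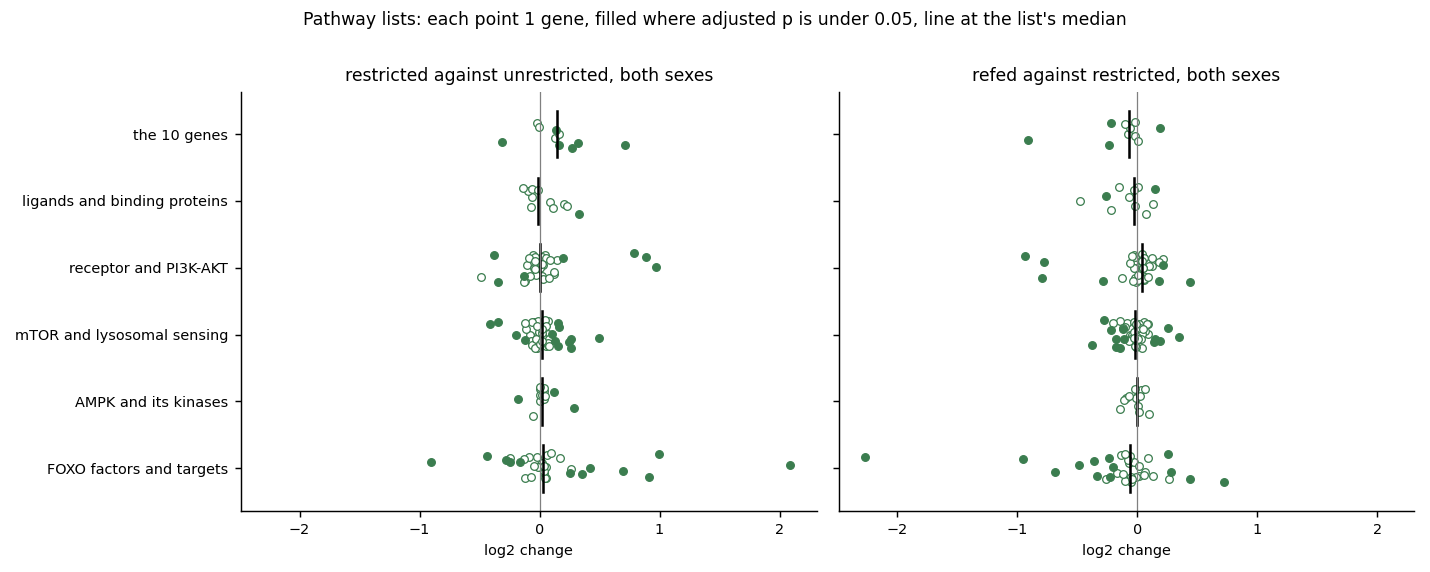
Log2 change of every tested gene of the 10 and of the 5 pathway lists (1 point per gene, filled where the edgeR adjusted p is under 0.05; black line at the median), with restriction on the left and with refeeding on the right. Cdkn1a is the point farthest to the right with restriction (2.09), and the 5 lists have rises and falls around medians near 0.

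The genes most like each changed member were taken as the 3 with the highest Pearson r over the 12 group means of log2 CPM, which share libraries and depth, so r is a description. For Ddit4 they were Plat (0.972), Spacdr (0.969) and Nfkbia (0.967). For Sesn1 they were Arrdc2 (0.99), Gjb6 (0.989) and Htra1 (0.987), the first of which rose by 1.42 with restriction. For Irs2 they were Phactr4 (0.981), Kirrel2 (0.974) and Atosa (0.973). Igfbp2 was followed most closely by Kcne1l (0.975), H1f2 (0.958) and the microglial marker Aif1 (0.942), which fell by 0.57 with restriction. Foxo1 had Traf3ip1 (0.955), Eef2k (0.954) and Klf13 (0.943), and Insr had Tut7 (0.949), Mamld1 (0.932) and Tle3 (0.92). Only the Igfbp2 and Sesn1 sets held a gene of the marker lists, Gjb6 being on the astrocyte list.

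In the GRCm39 annotation the 10 genes lie on 5 chromosomes: Igfbp2 (72863606 to 72891634) and Irs1 (82210822 to 82269338) on chromosome 1, Foxo1 (52175757 to 52260642) on 3, Igf1r (67601518 to 67883416) on 7, Insr (3172061 to 3329647) and Irs2 (11034681 to 11059499) on 8, and Sesn1 (41685931 to 41784423), Foxo3 (42057837 to 42154007), Ddit4 (59785491 to 59788492) and Igf1 (87693642 to 87772904) on 10. All are protein-coding. Sesn1 overlaps Cep57l1 on the opposite strand, which had a median of 38.5 counts per library, and Igf1r overlaps Pgpep1l (median 6 counts) and Irs2 the non-coding 9530052E02Rik (median 4.05 counts). These overlaps are of whole gene spans, and shared exon sequence was not looked for. The strand setting of the counting is not given in the sources used here. Whether any reads of these opposite-strand genes were counted for the members is therefore not known.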

How the data were processed

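Poly-A selected RNA of 48 mouse brain hemispheres was sequenced. The authors deposited 1 table of estimated counts per gene symbol, made from the reads and left unscaled between libraries, with 66.1% of nonzero values whole. Per the submitters' processing notes, fastp, STAR and Salmon and the build mm39 were used, with roles and versions not given in the sources used here, nor the strand setting. Groups came from the labels' sex, genotype and treatment. Replicate numbers follow record order and pair nothing. Nothing in the labels says that the mice were littermates or shared a day.

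Counts were rounded, genes with low counts removed (filterByExpr), library sizes scaled with TMM (factors 0.913 to 1.03), and a quasi-likelihood model with 1 coefficient for each of the 12 groups fitted to all 48 libraries in edgeR 4.0.16 (R 4.3.3). P-values were adjusted over 17352 genes (Benjamini-Hochberg), with a threshold of 0.05. Log2 CPM used a prior count of 2. No library was a copy of another of its group: the chi-square per gene between the 72 pairs of replicates was at least 2.27. Pairs from different groups were not compared. Alternatives were DESeq2 1.42.0, limma 3.58.1 with sample weights, RLE size factors, no filter, age as a covariate, a split of the libraries at number 28 in the labels, trends on GC content or transcript length removed in 20 bins (98.6% of the tested genes had values), the groups compared alone, the Grin1fl/+ control left out, each library left out in turn and, chosen after seeing the data, both libraries that stood apart left out. On simulated counts for restriction over both sexes (17233 genes), 68 of 100 genes changed by 0.3 and 92 of 100 changed by 1 on the log2 scale were recovered, with 14 false calls. For 1 sex, 40 (females) and 43 (males) of 100 changed by 0.3 were. Only those genes were changed in the simulation, whereas 15.2% of genes were called in the data, so recovery there may differ.

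The members, pathway lists and marker lists were chosen with earlier results of these data known. All members are named. From each pathway list, up to 4 genes called higher and 4 called lower with the smallest p are named, for restriction and for refed against unrestricted mice. Close relatives of the members and the 3 genes most like each changed member are named too. Rhebl1, Rps6kb1 and Prr5 were added as risers of the mTOR list that are not brakes. Reads carry no molecular identifiers, so counts are not independent molecules.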

Additional observations from a re-analysis of the deposited data

Results flagged for a closer look

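Among the 120 sets of 4 mice (10 genes in 12 groups), 2 held a mouse far from the others, and chance alone gives about 1 in 20. Both were in Ddit4, the member with the widest spread. Female control restricted replicate 1 was the lowest of its group at 74.8 CPM, where the other three ran from 108 to 115 CPM. Male knockout unrestricted replicate 1 was the lowest of its group at 43.4 CPM, where the others ran from 71.8 to 73.5 CPM. Leaving out 1 library at a time kept the log2 change of Ddit4 with restriction between 0.67 and 0.75.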

How the results depend on the processing

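Ddit4, Irs2, Sesn1 and Igfbp2 were called with restriction under all 11 alternatives and with each of the 48 libraries left out. No member's log2 change reversed in sign where the main fit or the other fit called it. Small differences called by neither did change sign, as for Irs1 with restriction (-0.0183 to 0.00516 over the alternatives). The count of members changed with restriction ran from 4 to 8 over the alternatives and over the fits without 1 library, because Insr, Foxo1, Igf1r and Foxo3 lie near the threshold. Insr was called under 9 of 11 alternatives (lost with no filter, adjusted p = 0.0613, and with the library number split), Foxo1 under 10, Igf1r under 9 and Foxo3 under 5. After refeeding the count ran from 4 to 5, and from 3 to 4 without 1 library. With the library number split it was 4 as well, but Igfbp2 was lost and Insr gained. In refed males against restricted males it was 1 in place of 4 with the groups compared alone, where Irs2, Igfbp2 and Sesn1 had adjusted p of 0.0896, 0.0921 and 0.0513. Refed against unrestricted mice gave 0 to 1 members without 1 library in both sexes together and 0 to 2 in males, the higher values without male control refed replicate 2. The count of all genes in that comparison was 128, but 19 with the library number split, 197 with DESeq2, 894 with limma, and 82 to 677 without 1 library. For knockouts in the 6 combinations 0 members were called, and 1, always Igfbp2 in restricted females, with limma, with DESeq2 and without the 2 libraries that stood apart. Without 1 library that count was 0 to 1, the 1 without male control refed replicate 1. Among list counts, ligands and binding proteins with restriction went from 1 to 2 with the library number split or the length trend removed, and the AMPK list in refed against unrestricted mice from 1 to 0 with that split. The causes of these differences were not tested. No paired analysis was possible because the labels give no replicate numbers shared between groups. Depth and spread limit the calls, and a member that was not called may have changed within its interval.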
